A study of Caenorhabditis elegans with 9 samples.

Results

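The genes described here encode proteins of the ciliary transition zone, with mks-6 as the gene that stood apart from the rest. The group has 9 genes, chosen by gene symbol: mks-6, mks-1, mks-2, mks-3, mks-5, mksr-1, mksr-2, nphp-1 and nphp-4. Of these, 8 have a probe set of their own on the array, measured by 9 of the 22548 probe sets that are not controls, and mks-2 was not analysed here because no probe set carries its symbol. The transition zone is the short segment between the basal body and the ciliary shaft, where Y-shaped links join the microtubules to the membrane and a gate controls which proteins enter and leave the cilium. In C. elegans the cilia sit on the dendrite tips of sensory neurons, so these genes are used by a small share of the cells of the animal. The proteins form a module named after Meckel syndrome (MKS) and a module named after nephronophthisis (NPHP), which act in parallel on a shared scaffold, and many ciliary genes are switched on by the RFX transcription factor DAF-19.

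RNA came from mixed-stage populations of 4 strains. Wild-type Bristol N2 had 2 arrays, the nth-1 mutant 3, the xpa-1 mutant 2 and their double mutant, nth-1;xpa-1, also 2. By the study's methods the mutants carry the deletion alleles nth-1(ok724) and xpa-1(ok698), which remove the base excision repair glycosylase NTH-1 and the nucleotide excision repair protein XPA-1, although the deposited design text calls them RNAi mutants. Before use every strain was crossed back again, and all grew on agar with the same E. coli strain as food. Each replicate came from plates of its own, so the arrays are read as separate cultures.

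Values are log2 expression levels made by the authors, and every difference between strains below is a difference of log2 levels. They were fitted with limma in 1 model of all 9 arrays, with Benjamini-Hochberg adjustment over the 22548 probe sets and a threshold of 0.05. The interaction is the effect of nth-1 loss in animals with the xpa-1 deletion minus its effect in animals without it. The hybridization control BioC splits the arrays into 5 with a high level (9.63 to 10.04: the N2 pair, the double mutant pair and 1 xpa-1 array, replicate 1) and 4 with a low level (8.20 to 8.29: the 3 nth-1 arrays and xpa-1 replicate 2). One nth-1 array, replicate 3, stood apart: over all probe sets its correlation was 0.950 with replicate 1 and 0.952 with replicate 2, whose own was 0.991. As a check of the labels, the xpa-1 transcript was low on the 4 arrays labelled with its deletion (5.66 to 6.59) and high on the other 5 (10.35 to 10.69). The nth-1 transcript was not lower on the arrays labelled nth-1 (9.37 to 9.63) than in N2 (9.32 and 9.63), and without the position of its probes relative to the deletion it checks nothing. Since these are whole animals, more cells of a type and more RNA per cell cannot be told apart. The lower quartile of the arrays was 6.23 to 6.46 and the median 7.43 to 7.68. All 7 measured members other than mks-6 were below the array median on each of the 9 arrays, and without detection calls a low level cannot be separated from background.

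The mks-6 transcript, which encodes a coiled-coil and C2 domain protein of the MKS module, was high in every array with the xpa-1 deletion and low in every array without it. Its levels were 6.31 and 6.12 in N2 and 5.98, 6.06 and 6.38 in nth-1 replicates 1 to 3. They were 10.66 and 10.19 in xpa-1 and 9.33 and 9.50 in nth-1;xpa-1. The ranges of the 2 states did not overlap, with 2.95 between the highest array without the deletion and the lowest with it. Ranges that did not overlap, by any margin and in either direction, were found for 1.88% of all probe sets (424). The level of mks-6 was the reason for singling it out, so these differences are a description and no test is given.

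The mean level of mks-6 was highest in xpa-1, at 10.43 ± 0.33 (SD, n = 2). The double mutant followed at 9.42 ± 0.12 (SD, n = 2), then N2 at 6.21 ± 0.13 (SD, n = 2) and nth-1 at 6.14 ± 0.21 (SD, n = 3). The difference of xpa-1 from N2 was 4.21 (standard error 0.22), which is 18.5-fold. The difference of nth-1;xpa-1 from N2 was 3.20 (standard error 0.22), or 9.19-fold, and from nth-1 it was 3.27 (standard error 0.20), or 9.68-fold. These comparisons share arrays and are given side by side. On 4 of the 5 arrays without the deletion mks-6 was below the lower quartile of the array, where a level cannot be separated from background, so each fold is that of the deposited values and only a lower bound for the transcript. Over both backgrounds, strains with the deletion were 3.74 (standard error 0.15) above strains without it, 13.4-fold, which ranked mks-6 in place 1 among the 22548 probe sets by rise and in place 2 by size of change, behind xpa-1. The separation was present on both levels of BioC: among the 5 arrays of high level xpa-1 replicate 1 stood at 10.66 and both N2 arrays below 6.4, and among the 4 of low level xpa-1 replicate 2 stood at 10.19 and the nth-1 arrays at 6.38 or less.

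N2 and nth-1 share the xpa-1 state and are not the contrast by which mks-6 was singled out. A test is given for this pair, although its values were known too. The nth-1 mean was -0.075 from that of N2 (95% interval -0.53 to 0.38, adjusted p = 0.85 from limma). The level of mks-6 was lower in nth-1;xpa-1 than in xpa-1, with a difference of -1.01 (standard error 0.22). Both arrays of the double mutant were below both of xpa-1. The high levels in xpa-1 are among those that singled the gene out, so this difference is a description and no test is given. Without nth-1;xpa-1 replicate 1 the difference was -0.93. Within the arrays of high BioC level alone the difference was -1.25, with 1 array of xpa-1 and so no spread of its own.

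In this order of the strains the neighbours N2 and nth-1 did not differ beyond their spread. The xpa-1 transcript itself, whose product verifies DNA damage in nucleotide excision repair, ran the other way. It was 10.57 and 10.58 in N2, 10.69, 10.51 and 10.35 in nth-1, 6.59 and 5.66 in xpa-1, and 6.03 and 5.78 in nth-1;xpa-1. Over the 9 arrays the Pearson correlation of mks-6 with xpa-1 was -0.97, as a description. The deposited values do not say where the probes of either gene lie relative to the deletion.

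**Figure D1:**
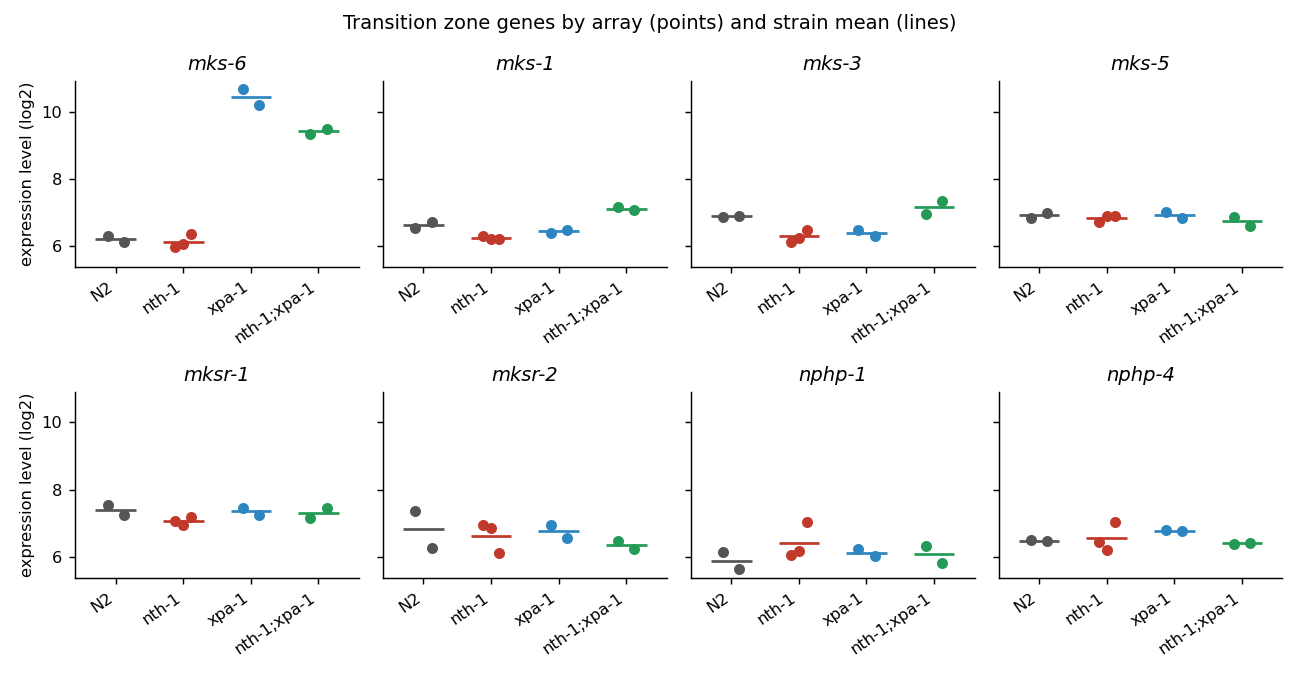
Log2 expression level (vertical axis) of the 8 measured transition zone genes in each of the 4 strains, with a point per array and a line at the strain mean. For mks-6 the 4 arrays with the xpa-1 deletion lie between 9.33 and 10.66 and the 5 without it between 5.98 and 6.38, while the arrays of the other 7 genes lie between 5.64 and 7.55.

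The other members did not share this pattern. None of the 7 had ranges apart between the 4 arrays with the xpa-1 deletion and the 5 without it, against the 1.88% of all probe sets named above. In the test of strains with against strains without the deletion, limma called 0 of 7, where 272 of the 22548 probe sets were called in either direction (1.21%). Both counts of 0 are near these shares, so they do not set the 7 genes apart from other probe sets. The differences of the 7 ran from -0.17 in mksr-2 to 0.34 in mks-1, with a median of 0.07 beside 0.045 over all probe sets. At an unadjusted p under 0.05, mks-1 alone was past the threshold (0.34, standard error 0.09, adjusted p = 0.12 from limma), and without nth-1 replicate 3 its adjusted p was 0.034. Relative to the median level of the other 7 genes on the same array, mks-6 was at -0.60 to -0.20 on the 5 arrays without the deletion, at 3.86 and 3.62 in xpa-1 and at 2.45 and 2.89 in nth-1;xpa-1.

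The gene order around xpa-1 was used to see whether other genes there moved with mks-6. In the RefSeq annotation mks-6 is the protein-coding gene next to xpa-1 on chromosome I. Of the 10 protein-coding genes on either side, 15 besides mks-6 have a probe set of their own. Of these 15, limma called 0 in xpa-1 against N2, where 10.5% of all probe sets were called. It also called 0 in strains with against strains without the deletion, where 1.21% were called, so that count is near the background. In each comparison 2 were past an unadjusted p of 0.05. The largest difference of xpa-1 from N2 among the 15 was -1.145, in let-522 (adjusted p = 0.062 from limma). With against without the deletion, the differences of the 15 ran from -0.36 to 0.49. On the far side of xpa-1, crml-1, named as a CARMIL homolog, differed in xpa-1 from N2 by 0.04 (adjusted p = 0.93) on its brighter probe set and by 0.35 (adjusted p = 0.42) on a dimmer one, the ferrochelatase-like gene fecl-1 by -0.17 (adjusted p = 0.56) and hpo-11 by 0.07 (adjusted p = 0.85 from limma).

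The genes that follow mks-6 did not share its pattern. K07G5.4, the next gene, was at 8.05 and 8.21 in N2, 7.48, 7.41 and 7.20 in nth-1, 7.67 and 7.60 in xpa-1, and 8.44 and 8.54 in nth-1;xpa-1. It was thus highest in the double mutant and lower than N2 in both single mutants. Relative to N2 it changed by -0.77 in nth-1 (adjusted p = 0.018 from limma, standard error 0.15). The double mutant exceeded nth-1 by 1.13 (adjusted p = 0.0013, standard error 0.15), while the xpa-1 mean was -0.49 from that of N2 (adjusted p = 0.097). K07G5.5, the gene after that, was 1.29 higher in nth-1;xpa-1 than in nth-1 (adjusted p = 0.016 from limma, standard error 0.33), and its xpa-1 mean was -0.30 from that of N2 (adjusted p = 0.63). The strain means of both genes had the same order as those of mks-1 and mks-3, given below. In the comparison of nth-1;xpa-1 with nth-1, 3 of the 15 genes rose and 0 fell, where 36.7% of all probe sets were called and 21.7% rose. These counts take the brighter probe set of each gene. The dimmer one of crml-1 was at 9.39 and 9.46 in N2, 9.72, 9.48 and 9.92 in nth-1, 9.45 and 10.1 in xpa-1, and 8.96 and 8.77 in nth-1;xpa-1. It was lower in the double mutant than in nth-1 (-0.84, adjusted p = 0.024 from limma) and also below xpa-1 (-0.91, adjusted p = 0.026), while the brighter one gave -0.12 (adjusted p = 0.68) and -0.34 (adjusted p = 0.28). The call of K07G5.4 in nth-1 was lost without either N2 array (4 of 17 other settings in all), that of K07G5.5 without either array of the double mutant, and both of those against nth-1 with the BioC term.

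**Figure D2:**
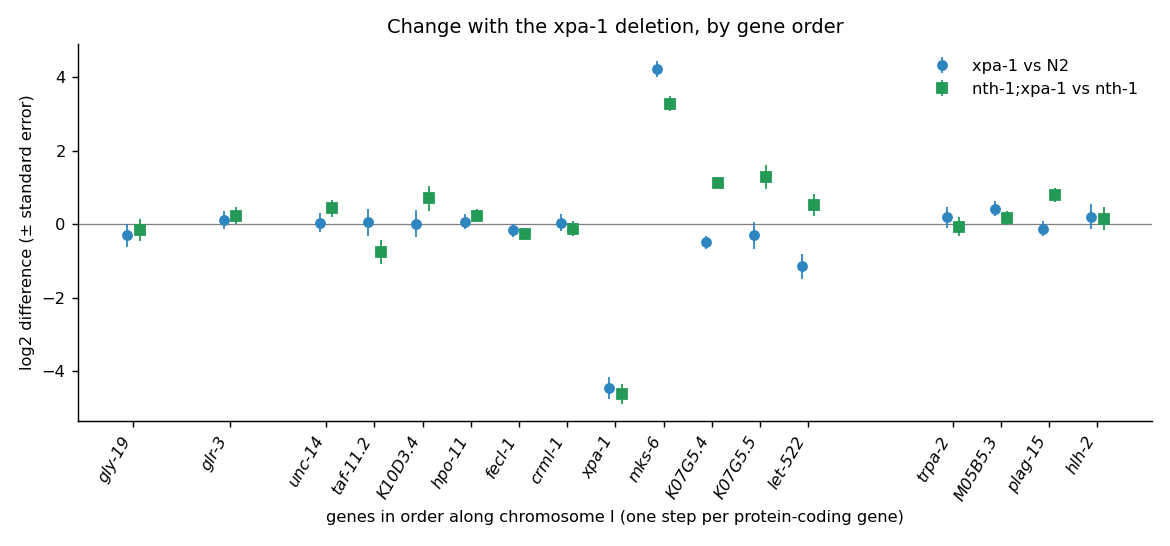
Log2 difference (vertical axis, bars of 1 standard error) of xpa-1 from N2 and of nth-1;xpa-1 from nth-1, for xpa-1 and the measured genes on either side of it in gene order (horizontal axis). The differences of xpa-1 were -4.45 and -4.61 and those of mks-6 were 4.21 and 3.27, while the other genes lay between -1.15 and 1.29.

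Of the other members, mks-1 and mks-3 differed between the double mutant and the single mutants. The nth-1 arrays were all of low BioC level, and those of N2 and nth-1;xpa-1 all of high level. In comparisons of nth-1 with either of these strains, strain and BioC level therefore cannot be told apart. MKS-1 is a B9 domain protein of the MKS module and MKS-3 is its membrane-spanning meckelin. The levels of mks-1 were 6.56 and 6.72 in N2, 6.30, 6.21 and 6.22 in nth-1, 6.40 and 6.49 in xpa-1, and 7.16 and 7.08 in nth-1;xpa-1. Both arrays of the double mutant were above all other arrays, and the single mutants were all below N2. The double mutant exceeded nth-1 by 0.88 (1.84-fold, standard error 0.12, adjusted p = 0.0014 from limma) and xpa-1 by 0.68 (1.60-fold, standard error 0.13, adjusted p = 0.0055). Against N2 its differences did not pass: -0.40 in nth-1 (adjusted p = 0.074), -0.20 in xpa-1 (adjusted p = 0.38) and, in the double mutant, 0.48 (adjusted p = 0.06 from limma).

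The levels of mks-3 were 6.88 and 6.90 in N2, 6.14, 6.26 and 6.50 in nth-1, 6.48 and 6.32 in xpa-1, and 6.96 and 7.36 in nth-1;xpa-1. Again the double mutant was highest and both single mutants were below N2, without overlap between the double and single mutants. The double mutant exceeded nth-1 by 0.86 (1.82-fold, standard error 0.17, adjusted p = 0.0051 from limma) and xpa-1 by 0.76 (1.69-fold, standard error 0.18, adjusted p = 0.013). Its differences from N2 were -0.59 in nth-1 (adjusted p = 0.058), -0.49 in xpa-1 (adjusted p = 0.12) and, in the double mutant, 0.27 (adjusted p = 0.40 from limma). Without nth-1 replicate 3, mks-3 passed as lower than N2 in both single mutants, at -0.69 for nth-1 (adjusted p = 0.012) and -0.49 for xpa-1 (adjusted p = 0.043). The lower quartile of the arrays also differed by strain, in the same direction as mks-1 and mks-3. It was 6.46 and 6.45 in nth-1;xpa-1, 6.4 and 6.39 in N2, 6.24 to 6.25 in nth-1, and 6.27 and 6.23 in xpa-1. Over all probe sets the median difference of nth-1;xpa-1 from nth-1 was 0.128, and 0.012 with the filter at the 40th percentile of mean level. The part of this shift in mks-1 and mks-3 was not tested.

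The interaction, which asks whether loss of nth-1 acts alike in both xpa-1 states, was called for these same genes. It was 1.07 (standard error 0.18, adjusted p = 0.0023 from limma) for mks-1 and 1.35 (standard error 0.25, adjusted p = 0.0033) for mks-3, while for mks-6 it was -0.94 (standard error 0.30, with no test). With the BioC level as a term, a term that only the 2 xpa-1 arrays estimate, the interactions of mks-1 (1.21, adjusted p = 0.073) and mks-3 (1.11, adjusted p = 0.19) no longer passed. Under this term mks-1 (0.97, adjusted p = 0.056) and mks-3 (0.70, adjusted p = 0.22) no longer passed against nth-1 either, and mks-3 (0.68, adjusted p = 0.067) did not against xpa-1. Quantile normalization, which moved the median difference of all probe sets from 0.17 to 0.00 in the interaction, gave 0.69 for mks-1 there (adjusted p = 0.019). Against xpa-1, the double mutant then differed by 0.44 in mks-1 (adjusted p = 0.037) and, no longer past the threshold, by 0.53 in mks-3 (adjusted p = 0.052). Leaving out nth-1;xpa-1 replicate 2 ended both calls of mks-3 (0.66, adjusted p = 0.059, against nth-1 and 0.56, adjusted p = 0.10, against xpa-1), and leaving out xpa-1 replicate 2 ended that against xpa-1 (0.68, adjusted p = 0.067).

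In counts, 2 of the 7 rose in nth-1;xpa-1 against nth-1 and 0 fell, where 36.7% of all probe sets were called and 21.7% rose. Against xpa-1 the count was 2 up and 0 down (34.8% of all probe sets called, 19.4% up), and in the interaction it was 2 up and 0 down (39.4% called, 23.0% up), so these shares are near the background. Against N2, limma called 0 of 7 in nth-1 (3.06% of all probe sets up and 6.98% down), 0 of 7 in xpa-1 (10.5% called) and 0 of 7 in nth-1;xpa-1 (8.64% called). At an unadjusted p under 0.05, the genes past the threshold were mks-1 and mks-3 in nth-1 (both down), mks-3 in xpa-1 (down) and mks-1 in nth-1;xpa-1 (up). The medians of the 7 were -0.18, -0.05 and -0.08, beside -0.05, -0.04 and 0.05 over all probe sets.

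**Figure D3:**
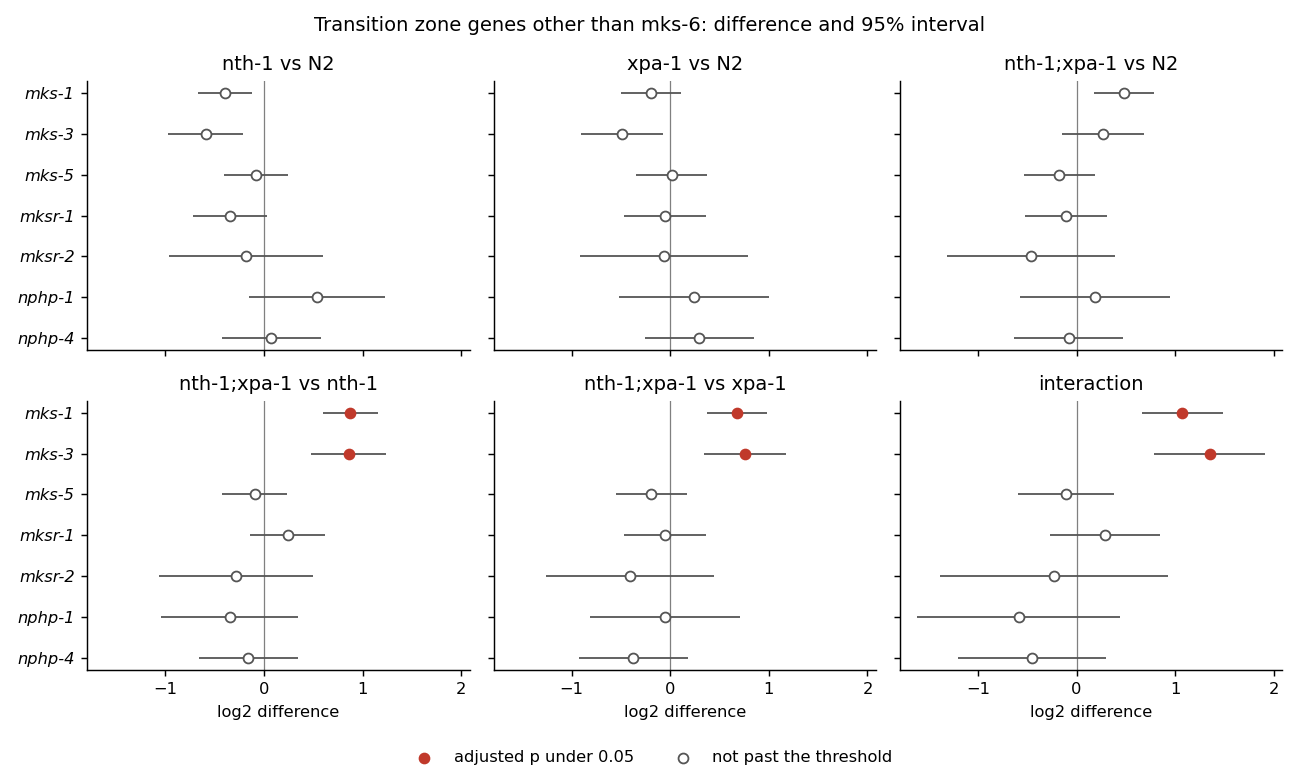
Log2 difference (horizontal axis) with its 95% interval for the 7 measured members other than mks-6 in each comparison of strains and in the interaction. Filled points mark mks-1 and mks-3, which passed the threshold in nth-1;xpa-1 against nth-1 and against xpa-1 and in the interaction. All other points are open.

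The remaining MKS module genes showed no difference past the threshold. MKSR-1 and MKSR-2 are the other B9 domain proteins of the module. Across the arrays mksr-1 lay between 6.94 and 7.55, and its difference with the xpa-1 deletion was 0.10 (95% interval -0.19 to 0.38). The levels of mksr-2 were 7.36 and 6.28 in N2, so the 2 wild-type arrays spanned nearly the whole range of the 9 (6.12 to 7.36). Its difference with the deletion was -0.17 (95% interval -0.75 to 0.40), so the values of this gene are compatible with any difference within these bounds.

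The scaffold gene mks-5, whose product is needed for the other MKS and NPHP proteins to reach the transition zone, had the smallest range of the members over the 9 arrays, from 6.61 to 7.02. Its difference with the deletion was -0.04 (95% interval -0.28 to 0.20). In the 5 comparisons of strains that were fitted its differences ran from -0.19 to 0.02.

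The NPHP module is represented by nphp-1 and nphp-4, whose products are the nephrocystins. The levels of nphp-1 were 6.14 and 5.64 in N2, 6.06, 6.18 and 7.04 in nth-1, 6.23 and 6.03 in xpa-1, and 6.33 and 5.83 in nth-1;xpa-1. The one high value was nth-1 replicate 3, and the other 8 arrays overlapped. Its difference from N2 was 0.54 in nth-1 (standard error 0.30, adjusted p = 0.30 from limma), and its difference with the deletion was -0.05 (95% interval -0.57 to 0.46). The probe set of nphp-1 is of the kind that can match more than 1 transcript.

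For nphp-4 the brighter probe set was 7.05 in nth-1 replicate 3 and between 6.20 and 6.80 on the other 8 arrays. Its difference from N2 was 0.29 in xpa-1 (adjusted p = 0.47 from limma), and for the double mutant it was -0.08 (adjusted p = 0.88). A further probe set of nphp-4 gave -0.19 (adjusted p = 0.76) and 0.46 (adjusted p = 0.45), the opposite signs, so no direction is given for this gene.

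Other genes of the transition zone were read beside the members. In all 10 further genes were listed, of which 7 have a probe set of their own: tctn-1, ccep-290, tmem-107, tmem-231, jbts-14, hyls-1 and cdkl-1. Among them are the genes of tectonic (tctn-1) and of a homolog of CEP290 (ccep-290). In limma 0 of 7 passed against N2 in nth-1 (3.06% of all probe sets up and 6.98% down), xpa-1 (10.5% called) or nth-1;xpa-1 (8.64% called). With the xpa-1 deletion 0 of 7 passed (1.21% called), where the median was 0.0067. Beside these shares a count of 0 among 7 genes is near the background. In each of these comparisons 0 were past an unadjusted p of 0.05. The membrane protein gene tmem-107 was at 6.87 and 7.34 in N2, 6.85, 6.97 and 6.98 in nth-1, 6.83 and 6.48 in xpa-1, and 7.52 and 7.25 in nth-1;xpa-1. Its arrays of the double mutant lay above those of both single mutants and overlapped those of N2. It was higher in nth-1;xpa-1 than in xpa-1 by 0.73 (standard error 0.20, adjusted p = 0.023 from limma), the 1 of 7 called there (34.8% of all probe sets). Its interaction was 0.90 (standard error 0.27, adjusted p = 0.03), where 39.4% of all probe sets were called. The first of these calls passed under 12 of 17 other settings and the second under 9 of 15, and both were lost under quantile normalization, with the BioC term, and without nth-1;xpa-1 replicate 1 or xpa-1 replicate 2.

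Genes of intraflagellar transport, which carries proteins along the cilium, and of the BBSome, its cargo adaptor, were listed with other genes of cilium formation. Of 45 genes, 41 were measured, and in limma 0 passed with the xpa-1 deletion (median 0.16), with 5 past an unadjusted p of 0.05. In nth-1;xpa-1 against nth-1, 6 of the 41 rose and 0 fell, where 36.7% of all probe sets were called and 21.7% rose. Against xpa-1, 4 of the 41 rose and 1 fell, where 34.8% of all probe sets were called and 19.4% rose. In both comparisons the share of the list that was called, and the share that rose, were below those of all probe sets. The genes named next are therefore single calls and not a rise of the list. The rootletin gene che-10, whose product anchors the ciliary base, was 1.34 higher in nth-1;xpa-1 than in nth-1 (standard error 0.37, adjusted p = 0.021 from limma, and 0.46 on a dimmer probe set, adjusted p = 0.039), the small GTPase gene arl-13 by 0.70 (standard error 0.17, adjusted p = 0.014), the transport particle gene osm-6 by 0.64 (standard error 0.20, adjusted p = 0.034) and the BBSome gene bbs-8 by 0.60 (standard error 0.16, adjusted p = 0.019). Like mks-1 and mks-3, the last 3 of these were also higher in nth-1;xpa-1 than in xpa-1, osm-6 by 0.83 (adjusted p = 0.018), arl-13 by 0.69 (adjusted p = 0.022) and bbs-8 by 0.65 (adjusted p = 0.02 from limma). These calls against nth-1 and xpa-1 were each lost with the BioC term and without either array of the double mutant, with adjusted p up to 0.51.

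The gene of DAF-19 itself was at 9.89 and 9.97 in N2, 8.81, 8.87 and 10.31 in nth-1, 10.19 and 9.69 in xpa-1, and 10.37 and 10.46 in nth-1;xpa-1 on its brighter probe set. Its nth-1 arrays spanned the range of most others, and its difference of nth-1;xpa-1 from nth-1, 1.09, did not pass (standard error 0.42, adjusted p = 0.072 from limma).

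Markers of cell types were read on the same arrays. The summed level of 12 genes of all neurons, on the log2 scale, was 13.90 to 14.02 in N2, 13.52 to 14.59 in nth-1, 13.79 to 13.94 in xpa-1 and 14.40 to 14.47 in nth-1;xpa-1. The sums of the double mutant lay inside the range of nth-1, and 2 of the 12 rose and 0 fell in nth-1;xpa-1 against nth-1, where 36.7% of all probe sets were called and 21.7% rose. For 10 genes of ciliated sensory neurons the sums were 11.36 to 11.41 in N2, 11.003 to 11.631 in nth-1, 11.33 to 11.58 in xpa-1 and 11.47 in nth-1;xpa-1, again inside the range of nth-1 and also of xpa-1, and 2 rose and 1 fell against nth-1. For 9 genes of male ciliated neurons they were 9.84 to 9.90 in N2, 9.38 to 9.67 in nth-1, 9.58 to 9.97 in xpa-1 and 9.95 to 10.16 in nth-1;xpa-1. Of these 9, 6 rose and 0 fell against nth-1 (36.7% of all probe sets called, 21.7% up). In the interaction 7 rose and 0 fell (39.4% called, 23.0% up). Against N2, 2 of the 9 fell in nth-1 (6.98% down) and 1 fell in xpa-1 (10.5% called). Of the neuron lists 0 genes passed in nth-1;xpa-1 against N2, where 8.64% of all probe sets were called. Of 12 genes of germ line and oocytes, 7 fell in nth-1;xpa-1 against nth-1 and 10 against xpa-1, where 34.8% of all probe sets were called. Against N2, 5 fell in the double mutant (8.64% of all probe sets called) and 3 rose in xpa-1 (10.5%). Of 7 genes of body wall muscle 4 rose and 0 fell against nth-1 (36.7% of all probe sets called, 21.7% up). In strains with against strains without the xpa-1 deletion their median was 0.78, beside 0.045 over all probe sets. There 2 of the 7 rose and 0 fell, where 1.21% of all probe sets were called. Of 7 intestine genes 4 fell and 1 rose against nth-1 (36.7% of all probe sets called), and 4 fell and 0 rose against xpa-1 (34.8% called). The part of these markers in the levels of mks-1 and mks-3 was not tested.

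Replicate 3 of nth-1 carried higher levels of many of these genes than replicates 1 and 2. It was above both in 4 of the 7 members other than mks-6, in 6 of 7 further transition zone genes, in 36 of 41 genes of intraflagellar transport and cilium formation and in 10 of 12 genes of all neurons, against 44.3% of all probe sets. For mks-6 it was 6.38 against 5.98 and 6.06, and 2.95 below the lowest array with the xpa-1 deletion. The differences of mks-1 and mks-3 between nth-1;xpa-1 and nth-1 passed with and without this array.

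**Figure D4:**
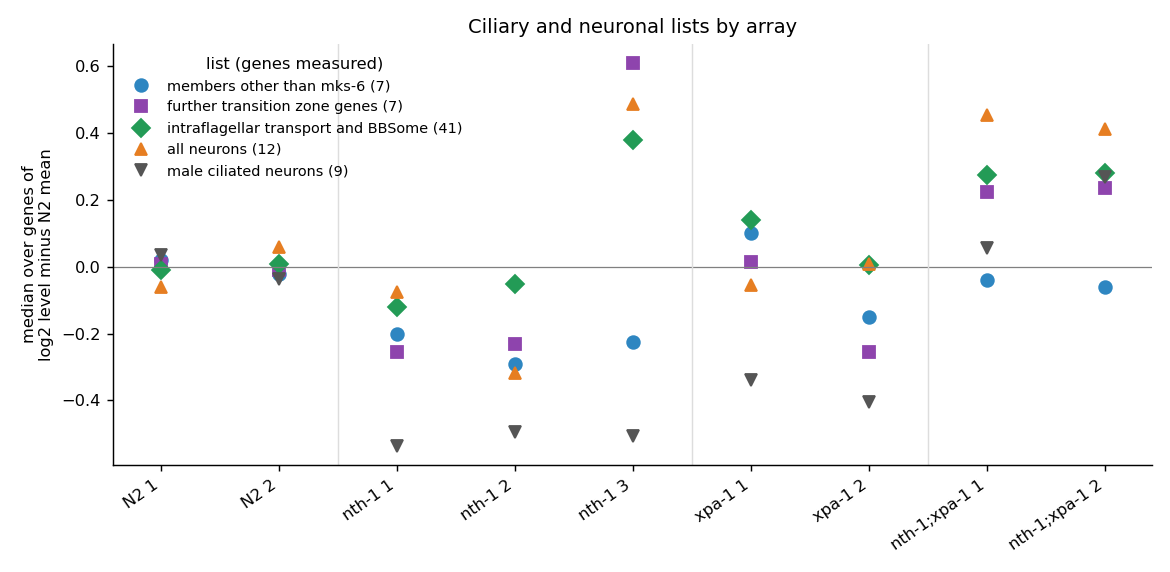
Median over the genes of a list of the log2 level minus the gene's N2 mean (vertical axis), for each of the 9 arrays, with 1 symbol per list. Further transition zone genes, intraflagellar transport genes and genes of all neurons stand at 0.61, 0.38 and 0.49 in nth-1 replicate 3 and between 0.22 and 0.46 in both arrays of nth-1;xpa-1, while the members other than mks-6 stay between -0.29 and 0.10. Genes of male ciliated neurons lie below 0 on every array of the single mutants.

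The probe sets with a pattern most like that of mks-6 over the 9 arrays were those of wdr-54 (Pearson's r = 0.95), C16A11.5 (0.94), cdh-8 (0.93), pdk-1 (0.91) and ivd-1 (0.91), among those with a single gene symbol. These correlations are a description over 9 arrays, chosen as the highest of all. The sizes of the changes were far from that of mks-6: between strains with and without the deletion wdr-54 differed by 0.51, C16A11.5 by 0.43, cdh-8 by 0.59, pdk-1 by 0.19 and ivd-1 by 0.31. Among the members, the highest correlation with mks-6 was that of mks-1 at 0.44.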

How the data were processed

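RNA of 9 cultures was hybridized to Affymetrix C. elegans arrays. The authors normalized the arrays by an invariant set in dChip (version not given in the sources used here), computed model-based expression from perfect-match probes, and deposited log2 values. The 77 control probe sets were left out. Probe sets were named by the platform's gene symbols, and the RefSeq table of WBcel235 was used only for names and gene order. Where a gene has several probe sets of its own, the brightest stands for it. Differences were fitted with limma 3.58.1 in R 4.3.3, with lmFit, eBayes with a variance trend, a coefficient per strain, 5 residual degrees of freedom and a threshold of 0.05 after Benjamini-Hochberg adjustment. The fit was tested on simulated data. The number of arrays limits the precision.

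The members, lists and tests were chosen with earlier results of these data known. Named are all members, xpa-1, the 3 measured genes on either side of it, up to 4 called genes per list and comparison, and the 5 probe sets most correlated with mks-6. Others were named after their values were seen. The other settings tried were a fit without the variance trend, a block for the replicate number, a term for the BioC level, quantile-normalized values, a constant of 32 added on the linear scale, a filter at the 40th percentile of mean level, fits of each pair of strains, the mean of the nphp-4 probe sets, each array left out in turn and, chosen after seeing the data, the arrays of high BioC level alone. For the plots, Python 3.11.15 and matplotlib 3.10.9 were used. Promoter sequence was not used here.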

Additional observations from a re-analysis of the deposited data

Results flagged for a closer look

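The effect of nth-1 loss differed between animals with and without the xpa-1 deletion for mks-1 and mks-3 by the interaction test of limma, in which 39.4% of all probe sets passed. For mks-1 the interaction was 1.07, from -0.40 without the deletion to 0.68 with it, and both arrays of nth-1;xpa-1 were above both of xpa-1. For mks-3 it was 1.35, from -0.59 to 0.76, again with both arrays of nth-1;xpa-1 above both of xpa-1.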

How the results depend on the processing

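Across the settings tried, mks-6 kept a higher level with the xpa-1 deletion: its difference was 3.74, 3.26 with 32 added before the logarithm, 3.62 with the BioC level as a term and 3.62 to 3.86 with each array left out. Among the other 7 members, 0 were called with the deletion, and 0 to 1 with each array left out (mks-1 without nth-1 replicate 3). The counts against N2 were 0 in each mutant, with 0 to 1 on leaving out an array (the 1, mks-3 in nth-1 and in xpa-1 and mks-1 in nth-1;xpa-1, came without nth-1 replicate 3). For nth-1;xpa-1 against N2 the count was also 1, mks-1, with that pair of strains alone and within the arrays of high BioC level. The 2 called in nth-1;xpa-1 against nth-1, mks-1 and mks-3, became 0 with the filter, which removed both genes from the test, 0 with the BioC term, and 1 to 2 with an array left out. The 2 called against xpa-1 became 1 under quantile normalization, 0 with the filter, 1 with the BioC term, and 1 to 3 with an array left out, where nphp-4 was the third without nth-1 replicate 3 (adjusted p = 0.041). That call has no settled direction: it was -0.38 on the brighter probe set, 0.65 on the other one of nphp-4 and 0.14 with their mean. The 2 interactions became 0 with the filter and 0 with the BioC term. Apart from the filter, the cause of these changes was not tested. The values called for mks-1 and mks-3, and the difference of mks-6 in nth-1;xpa-1 against xpa-1, kept their sign in each setting that fitted them.

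Replicate numbers did not pair the samples: deviations of same-numbered arrays from their strain means correlated at -0.30 to 0.10 between strains. With the replicate block, mks-6 differed by 3.80 with the deletion, and 1 other member was called in nth-1 (mks-3) and 1 in nth-1;xpa-1 (mks-1) against N2; the other counts of members were as without it. Over all probe sets the block moved the calls from 2264 to 5072 in nth-1, from 2377 to 5422 in xpa-1, from 1948 to 5047 in nth-1;xpa-1 against N2 and from 272 to 2873 with the deletion. The BioC term gave 97 in nth-1 and 757 in xpa-1 against N2, 1077 against 8277 in nth-1;xpa-1 against nth-1 and 1429 against 8888 in the interaction. With 1 array left out, calls against N2 ranged from 232 to 6061 in nth-1, 245 to 6443 in xpa-1, 135 to 5910 in nth-1;xpa-1, and from 32 to 3909 with the deletion, each highest without nth-1 replicate 3. Pairs of strains alone gave 1012, 4095 and 9859 against N2, in that order of mutants. Without 1 array of the double mutant, calls were 3293 and 3529 against nth-1 and 3787 and 3820 against 7854 relative to xpa-1, and without N2 replicate 1 there were 5858 interactions. Quantile normalization gave 439 with the deletion and the filter 145, and 1229 in nth-1 against N2. Under quantile normalization 41.7% of the calls in nth-1 against N2 were higher, against 30.5%. Levels near the lower quartile of the arrays limit what can be read for the 7 members.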

Other observations

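The kinesin gene osm-3, whose product drives transport in the distal part of sensory cilia, was higher in all 3 mutants than in N2. Its levels were 6.30 and 6.32 in N2, 6.75, 6.74 and 6.92 in nth-1, 6.89 and 6.89 in xpa-1, and 6.94 and 6.75 in nth-1;xpa-1, with no overlap between N2 and any mutant. Both N2 levels of osm-3 were below the lower quartile of their arrays (6.4 and 6.39), where a level cannot be separated from background. Its difference from N2 was 0.49 in nth-1 (standard error 0.13, adjusted p = 0.044 from limma) and 0.58 in xpa-1 (standard error 0.14, adjusted p = 0.035). For the double mutant it was 0.54 (standard error 0.14, adjusted p = 0.0497 from limma). These comparisons share the same pair of N2 arrays, and each call was lost without either of them. Of the other settings, 3 of 16, 9 of 17 and 5 of 17 kept the calls, in that order of strains. The gene dyf-17 was at 6.80 and 6.56 in N2, 6.65, 6.70 and 6.68 in nth-1, 7.34 and 7.17 in xpa-1, and 6.47 and 6.56 in nth-1;xpa-1. It was higher in xpa-1 than in N2 by 0.57 (standard error 0.14, adjusted p = 0.039) and lower in nth-1;xpa-1 than in xpa-1, with a difference of -0.74 (adjusted p = 0.0053 from limma, standard error 0.14), a direction opposite to that of mks-1, mks-3, osm-6, arl-13 and bbs-8. The first call passed under 7 of 17 other settings and was lost on leaving out any array but nth-1 replicate 3, and the second passed under 17 of 17.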
